A study of Mus musculus with 42 samples.

Results

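The set comprised 10 genes of epithelial adhesion, tight junctions and the Snail axis: Cdh1, Epcam, Cldn3, Cldn4, Cldn6, Tjp1, F11r, Jam2, Podxl and Snai1. They were chosen by name and by function, with earlier results of these data known, from the 19259 gene symbols carried by the 2 array designs of the study. The paper and its supplement had already named Snai1, Jam2, Podxl, Cldn3 and Cldn4 among the genes that differed between its culture media. All 10 were measured in the first run of arrays and 9 in the second, in which Epcam had no probe.

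The first lineage decision of the mouse embryo leaves an epithelium, the trophectoderm, around an inner cell mass (ICM), and cell adhesion differs between these lineages. Epithelial cells are held together by E-cadherin and sealed by claudins and junctional adhesion molecules anchored to scaffold proteins such as ZO-1, whereas the transcription factor Snail represses Cdh1 and other epithelial genes during epithelial-mesenchymal transition (EMT). Mouse embryonic stem cells (ESCs) are themselves E-cadherin-positive and derive from the ICM.

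The study followed the transcriptome as mouse ICM cells became ESCs, in 2 runs of Illumina bead arrays with 42 arrays in all. In the first run, on BALB/c embryos, ICMs isolated by immunosurgery at embryonic day 3.5 were compared with outgrowths of whole blastocysts on days 3, 5, 7 and 9 (BO-3 to BO-9) and with ESCs at passage 20, with 3 arrays per group. In the second run, on hybrid B6 x C3H embryos, isolated ICMs were compared with ICM outgrowths after 0.5, 1, 2, 3 and 5 days (IO-0.5 to IO-5) and with ESCs at passages 2, 4 and 15 (P2, P4, P15), with 2 arrays per group. The outgrowths and ESCs grew on gelatin in N2B27 with R2i, that is 1 µM PD0325901 (an inhibitor of MEK) and 10 µM SB431542 (which blocks the type I receptor for TGF-β), and 1000 U/mL LIF. Outgrowths of days 1 and 3 were also grown without PD0325901, in 10 µM SB431542 and 1000 U/mL LIF (SBIO-1 and SBIO-3). ICMs were not cultured, so time and medium changed together between the ICM and any outgrowth. Each ICM or outgrowth array held a pool of 20 to 30 embryos in the first run and 30 to 40 in the second, and the BOs also carried trophectoderm of the whole blastocyst. The methods describe the arrays of a group as biological replicates; the labels do not say how many lines the ESC arrays stand for. In such pools, fewer cells of a type and less RNA per cell cannot be told apart.

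Levels are log2 normalized intensities, in which 1 unit is a doubling, and levels were compared only within a probe. A difference counted as called when it reached 2-fold and its Benjamini-Hochberg adjusted p, from limma across all genes of a run, did not exceed 0.05 for BALB/c or 0.01 for hybrid arrays. The share of probes above background was 28.9% to 35.4% on the 17 arrays fitted in the first run and 18% to 45.6% on the 22 fitted in the second. The hybrid ICM arrays were the dimmest of those fitted in the second run: the 95th percentile of raw intensity was 173.3 and 134.8, against 1558 and 1860 in IO-3. The SBIO-3 arrays were dim as well, at 260.8 and 673.3. BO-3 replicate 1, at 221.6 against 1223 and 1083 in the other BO-3 arrays, was left out of the fit.

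Summed over its 12 tested genes, the level of a trophectoderm marker list was 116.05 to 118.43 in IO-1, 87.08 to 87.69 in SBIO-1, 96.77 to 97.46 in IO-3, 108.4 to 110.11 in SBIO-3 and 68.14 to 68.76 in P15. The hybrid ICM arrays, at 86.55 to 87.98, lay near SBIO-1, with 5 and 6 of the 12 markers above background and Eomes, Elf5, Gata2, Gata3, Krt19 and Tfap2a above it on neither array. A list of 9 primitive endoderm markers summed to 82.67 to 84.5 in IO-1, 96.01 to 96.26 in SBIO-1, 80.54 to 81.26 in IO-3, 91.92 to 92.12 in SBIO-3 and 44.25 to 44.39 in P15. Both lists moved with time and with medium, and these values are placed beside the results below. In P15, both arrays lacked signal above background for Cdx2, Elf5, Gata6, Sox17, Pdgfra and Dab2. The BALB/c ESC arrays spread more widely, with 6 to 11 of 12 trophectoderm markers above background.

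**Figure D1:**
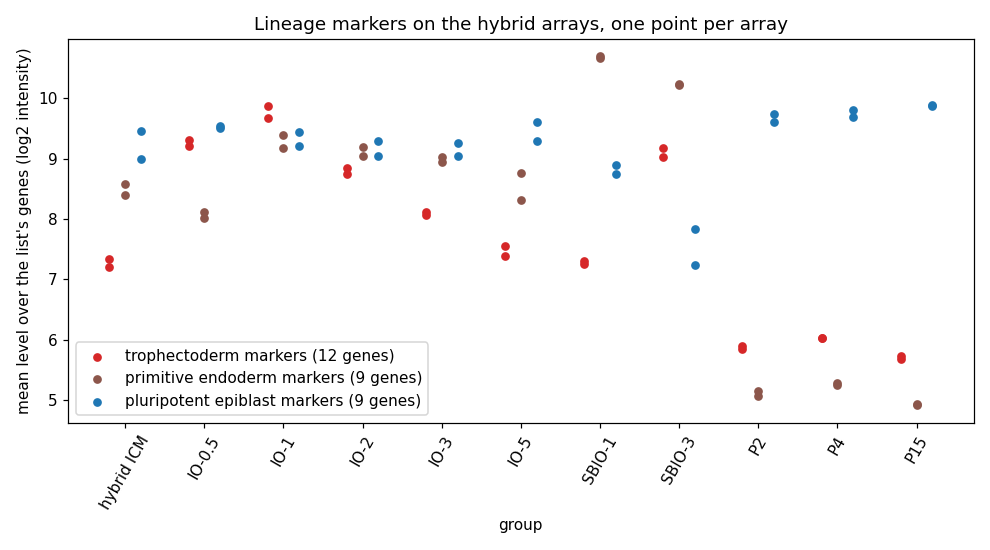
Mean level (log2 intensity) of the trophectoderm (12 genes), primitive endoderm (9 genes) and pluripotent epiblast (9 genes) marker lists on each of the 22 hybrid arrays fitted, by group. The trophectoderm list peaked in IO-1, was low in SBIO-1 and higher in SBIO-3, and both extraembryonic lists were lowest in P2, P4 and P15.

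In the first run, 5 of the 10 members were called between BO-3 and the ICM, 3 higher and 2 lower, where 20.5% of all 11450 genes tested were called. From BO-3 to BO-9, 3 members were called (1 higher, 2 lower), against 5.42% of all genes. From BO-9 to ESCs, 3 members were called (1 higher, 2 lower), against 13.7% of all genes. Between ESCs and the ICM, 6 members were called (2 higher, 4 lower), against 25.7% of all genes. The median member difference in these 4 comparisons was 0.24, -0.57, -0.30 and -0.47 on the log2 scale, beside -0.02, 0.02, 0.01 and 0.00 for all genes.

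In the second run, 3 of 9 members were called between IO-0.5 and the ICM (2 higher, 1 lower), where 23.8% of all 10013 genes were called. From IO-0.5 to IO-1, 2 members rose and none fell, against 3.4% of all genes called. From IO-1 to IO-5, 2 fell and none rose, against 5.78% of all genes. From IO-5 to P15, 4 were called (2 in each direction), against 12% of all genes. Between P15 and P2 it was 1 member, which was higher, against 12.8% of all genes, and between P15 and the ICM it was 3 (2 higher, 1 lower), against 48.1%. The median member difference in these 6 comparisons was 0.71, 0.38, -0.25, -0.48, -0.10 and 0.32, beside 0.04, 0.01, -0.01, -0.04, 0.00 and 0.04 for all genes.

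For the medium, 4 of 9 members were called between SBIO-1 and IO-1 (1 higher, 3 lower), where 2.52% of all genes were called. Between SBIO-3 and IO-3, 3 members were called (2 higher, 1 lower), against 11.1% of all genes. From SBIO-1 to SBIO-3, 3 were called (2 higher, 1 lower), against 7.12%. In the test of whether the medium effect itself changed from day 1 to day 3, 3 were called (2 higher, 1 lower), against 10.2%. The median member difference was -0.39, 0.59, 0.28 and 1.03, beside 0.01, -0.01, -0.03 and -0.01 for all genes.

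**Figure D2:**
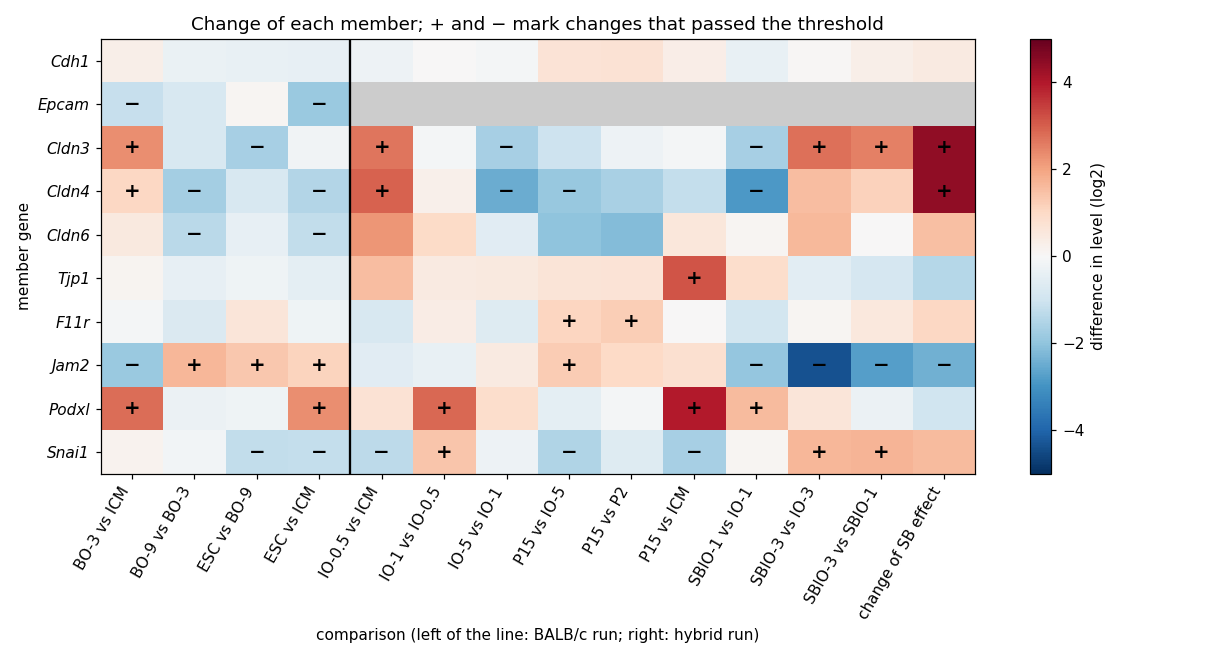
Difference in level (log2, colour) of each of the 10 members in the 14 comparisons, with + and − marking differences that were called. Cdh1 carried no mark in any comparison, and the strongest colours were those of Jam2 in SBIO-3 and of Cldn3 and Cldn4 in the change of the medium effect; grey cells are Epcam, which had no probe in the second run.

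Cdh1 encodes E-cadherin, the calcium-dependent adhesion molecule of adherens junctions. It was not called in any of the 14 comparisons. In the first run the 3 ICM arrays read 11.50, 11.53 and 11.64, the BO-3 arrays 11.89 and 11.80, the BO-9 arrays 11.94, 10.94 and 11.62, and the ESC arrays 11.08, 11.05 and 11.25. The ESC arrays lay below the ICM arrays without overlap, with a fitted difference of -0.43 (95% interval -0.86 to 0.00, adjusted p = 0.0942).

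In the second run Cdh1 read 10.53 and 10.61 in the ICM, 10.34 and 10.33 in IO-1, 10.05 and 10.27 in IO-3, 9.65 and 10.79 in IO-5, and 10.77 and 11.01 in P15. The range of its 11 group means, 0.94, was the smallest of the 9 members measured there. Between the media, SBIO-1 (9.83 and 10.07) differed from IO-1 by -0.39 (95% interval -0.99 to 0.22, adjusted p = 0.508). SBIO-3 (10.05 and 10.40) overlapped with IO-3, with a difference of 0.06 (95% interval -0.54 to 0.67, adjusted p = 0.902). The P15 arrays lay above those of P2 (10.23 and 10.13) by 0.71 (SE 0.28, adjusted p = 0.0794), a difference that was called under cyclic loess normalization (1.05, adjusted p = 0.00272). That between P15 and IO-5, 0.67 (adjusted p = 0.103), was called without IO-5 replicate 2 (1.23, adjusted p = 0.00581).

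Epcam encodes the epithelial cell adhesion molecule. It fell from the ICM, at 7.78, 7.99 and 7.76, to 6.65 and 6.76 in BO-3, a 2.2-fold decrease (log2 difference -1.14, SE 0.16, adjusted p = 1.93e-05). BO-9 read 6.05, 5.63 and 6.05 and ESCs read 5.90, 6.12 and 5.96, so that ESCs lay 3.61-fold below the ICM (-1.85, SE 0.14, adjusted p = 8.43e-09). These last 2 groups overlapped, and their difference of 0.09 was not called (adjusted p = 0.69). With BO-3 replicate 1 included, on which Epcam read 8.57, the difference between BO-3 and the ICM was -0.49 (adjusted p = 0.318), and the decrease from BO-3 to BO-9 was then called (-1.43, adjusted p = 0.0124).

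Among the other genes of adherens junctions and desmosomes, 3 of the 14 tested rose from the ICM to BO-3 and none fell, a share near the 20.5% called over all genes: Cdh3, which encodes P-cadherin (not above background in the ICM and at least 3-fold higher in BO-3, measured means 4.77 and 6.46, adjusted p = 0.000557), Nectin3, a nectin of adherens junctions (1.34, SE 0.20), and Pkp2, a desmosomal plakophilin (1.11, SE 0.27). The list's median was 0.40, beside -0.02 for all genes. In the second run, 4 of 9 were higher and 1 lower in P15 than in the ICM, near the 48.1% called over all genes, among them Ctnnb1, which encodes β-catenin (1.13, SE 0.26). Pkp2 and Nectin3 were not above background on the hybrid ICM arrays and were at least 2.82-fold (measured means 8.41 and 4.53, adjusted p = 1.56e-06) and at least 3.87-fold (measured means 8.86 and 5.61, adjusted p = 5.34e-06) higher in P15. None was called between SBIO-1 and IO-1, and 1, Nectin2 (2.23, SE 0.54), between SBIO-3 and IO-3, against 2.52% and 11.1% of all genes. Cdh1 was counted in this list.

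Claudins are the membrane proteins that form the strands of tight junctions, and Cldn3 and Cldn4 were higher in early outgrowths than in either the ICM or ESCs. Cldn3 was not above background on any of the 3 BALB/c ICM arrays (4.49, 4.70 and 4.67) and read 6.85 and 7.00 in BO-3, at least 4.16-fold higher (measured means 6.93 and 4.62, adjusted p = 1.96e-06). It read 8.21, 7.01 and 7.72 in BO-5, 6.30, 6.95 and 6.97 in BO-7, and 5.99, 6.33 and 6.06 in BO-9. In ESCs it was again not above background on any array (4.49, 4.35 and 4.51), at least 2.57-fold below BO-9 (measured means 4.45 and 6.12, adjusted p = 3.17e-05).

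The hybrid embryos showed the same order of levels. Cldn3 was not above background on either ICM array (4.51 and 4.27), read 7.16 and 6.99 in IO-0.5, then 7.05 and 6.93 in IO-1, followed by 6.43 and 5.89 in IO-2, 5.30 and 4.93 in IO-3, and 4.90 and 5.79 in IO-5. From IO-1 to IO-5 it fell 3.14-fold (-1.65, SE 0.28, adjusted p = 0.00098). It was not above background on any array of P2 (4.47 and 4.65), P4 (4.37 and 4.46) or P15 (4.35 and 4.24). P15 was at least 1.45-fold below IO-5 (measured means 4.29 and 5.35), a difference that was not called (adjusted p = 0.0129) with the main settings. It was called without IO-5 replicate 1 (adjusted p = 0.0025) and under cyclic loess normalization (adjusted p = 0.00545). On the dim ICM arrays the lowest signal above background was itself 6.41 and 7.41, so the rise to IO-0.5 was given only as at least 1.12-fold (measured means 7.07 and 4.39, adjusted p = 5.74e-06). Under cyclic loess normalization this rise was not called (1.15, adjusted p = 0.0119). In that setting 573 of all genes were called between IO-0.5 and the ICM, beside 2384 with the main settings.

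Cldn4 was above background on every fitted array except hybrid ICM replicate 2, and moved in the same order. BALB/c ICMs read 9.33, 9.01 and 8.66, BO-3 read 9.79 and 10.30, BO-9 read 7.92, 9.17 and 7.91, and ESCs read 7.88, 7.21 and 7.50. The decrease from BO-3 to BO-9 was 3.29-fold (-1.72, SE 0.40, adjusted p = 0.00789), and ESCs lay 2.77-fold below the ICM (-1.47, SE 0.35, adjusted p = 0.00216), in both cases without overlap. The rise to BO-3, 2.07-fold with an adjusted p of 0.0428, stood close to the threshold and was lost without BALB/c ICM replicate 2 (1.05, adjusted p = 0.0774) or 3 (0.88, adjusted p = 0.124) and without BO-3 replicate 2 (1.30, adjusted p = 0.0668) or 3 (0.79, adjusted p = 0.267), and the fall to BO-9 was lost without BO-3 replicate 3 (-1.46, adjusted p = 0.126).

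Hybrid arrays gave Cldn4 at 8.79 and 6.83 in the ICM, 10.85 and 10.64 in IO-0.5, where it was 7.66-fold higher (2.94, SE 0.45, adjusted p = 0.000136), and 11.03 and 10.96 in IO-1. That difference was 3.93 without hybrid ICM replicate 1, which leaves an array not above background, and 1.96 without replicate 2, and it was called in both cases. P15 lay below the ICM by -1.20 (adjusted p = 0.0289), which was not called. That difference was -2.19 without hybrid ICM replicate 2 and -0.22 without replicate 1. Cldn4 read 9.67 and 9.65 in IO-2, 7.78 and 7.69 in IO-3, 8.18 and 8.82 in IO-5, 8.37 and 8.06 in P2, 7.19 and 7.79 in P4, and 6.59 and 6.62 in P15. The fall from IO-1 to IO-5 was 5.64-fold (-2.50, SE 0.45, adjusted p = 0.00151), and a further fall of 3.72-fold followed to P15 (-1.89, SE 0.45, adjusted p = 0.00646). Both calls were lost on leaving out single arrays: the first without IO-1 replicate 1 (adjusted p = 0.0173) or 2 (adjusted p = 0.0117) or IO-5 replicate 1 (-2.19, adjusted p = 0.0287), the other without IO-5 replicate 2 (-1.58, adjusted p = 0.0837) or P15 replicate 1 (adjusted p = 0.0442) or 2 (adjusted p = 0.0464). The call for Cldn3 from IO-1 to IO-5 was likewise lost without IO-1 replicate 1 (adjusted p = 0.0136) or IO-5 replicate 1 (-1.19, adjusted p = 0.0202).

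Over some intervals of the hybrid run the trophectoderm list moved in the same direction as both claudins, and over others it did not. From the ICM to IO-0.5, 9 of its 12 tested genes rose and none fell, where 23.8% of all genes were called, and from IO-1 to IO-5, 10 fell and none rose, where 5.78% were called, among them Cdx2 (-3.54, SE 0.25) and Eomes (-3.64, SE 0.28), transcription factors of the trophoblast lineage, and the keratin gene Krt18 (-3.07, SE 0.31). The part of such cells in the claudin levels was not tested. From IO-3 to IO-5 the list sum fell from 96.77 to 97.46 down to 88.69 to 90.74. The group means of Cldn3 (5.12 and 5.35) and Cldn4 (7.74 and 8.50) did not fall over that interval. In the first run the trophectoderm list summed to 108.24 to 108.92 in the ICM, 119.92 to 122.91 in BO-3 and 103.1 to 111.24 in BO-9. Cldn3 was not above background on any of these ICM arrays and was above it on every BO-9 array.

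Cldn6, another claudin of early embryonic epithelia, fell from 7.66 and 7.99 in BO-3 to 6.79, 6.04 and 6.61 in BO-9 (-1.35, SE 0.24, adjusted p = 0.00113). BALB/c ESCs (6.02, 6.21 and 6.01) lay 2.38-fold below the ICM (7.15, 7.28 and 7.55, adjusted p = 0.000112). In the hybrid run it read 8.53 and 8.69 in P2, 6.66 and 6.27 in P4 and 6.42 and 6.47 in P15. The P15 arrays lay below those of P2 without overlap, but the difference of -2.16 (SE 0.68, adjusted p = 0.0285) was not called. It was called under cyclic loess normalization (-2.24, adjusted p = 0.000562) and with only the arrays compared (adjusted p = 3.42e-05), as was the difference between P15 and IO-5 (-2.09, adjusted p = 0.00109, and -2.03, adjusted p = 0.00778). Its standard error in this run was the largest of the members, with 7.02 and 4.76 on the ICM arrays and 10.50 and 7.79 in SBIO-3, and the latter ICM array was not above background.

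Cldn3 and Cldn4 are neighbours on mouse chromosome 5, and their 11 hybrid group means had a Pearson correlation of 0.85, given as a description over groups that share one run of arrays. The 250 bases upstream of the annotated starts of Cldn3 (chr5:134985964-134986213, + strand), Cldn4 (chr5:134946935-134947184, − strand), Cldn6 (chr17:23679115-23679364, + strand) and Snai1 (chr2:167537945-167538194, + strand) are shown because the claudins moved together or by passage and because Snail family proteins bind the E-box CAGGTG. They are RefSeq sequences on GRCm38.p6, written 5′ to 3′ in the direction of the gene, with each CAGGTG or its reverse complement CACCTG in capitals.
Cldn3: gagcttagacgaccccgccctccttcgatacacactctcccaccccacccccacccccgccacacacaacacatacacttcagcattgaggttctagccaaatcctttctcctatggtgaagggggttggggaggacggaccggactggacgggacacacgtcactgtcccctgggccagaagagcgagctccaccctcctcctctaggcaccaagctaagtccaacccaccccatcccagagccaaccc
Cldn4: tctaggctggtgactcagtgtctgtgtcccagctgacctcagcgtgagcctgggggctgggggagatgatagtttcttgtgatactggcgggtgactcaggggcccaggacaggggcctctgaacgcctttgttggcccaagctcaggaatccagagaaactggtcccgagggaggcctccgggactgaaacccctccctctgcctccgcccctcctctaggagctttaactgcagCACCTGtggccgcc
Cldn6: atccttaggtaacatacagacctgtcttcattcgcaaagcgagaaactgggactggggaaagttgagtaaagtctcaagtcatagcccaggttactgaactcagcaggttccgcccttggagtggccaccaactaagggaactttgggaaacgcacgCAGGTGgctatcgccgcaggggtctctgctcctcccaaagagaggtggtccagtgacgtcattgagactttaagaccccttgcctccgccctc
Snai1: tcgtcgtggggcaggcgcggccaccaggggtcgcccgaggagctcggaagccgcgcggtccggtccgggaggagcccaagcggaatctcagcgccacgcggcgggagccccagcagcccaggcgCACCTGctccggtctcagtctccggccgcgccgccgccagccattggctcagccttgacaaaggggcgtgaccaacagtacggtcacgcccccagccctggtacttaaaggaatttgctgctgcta

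Of the 7 members with an upstream window, 5 held this E-box on either strand, against 17.2% of all 32851 windows of the same length. No window was matched for Cdh1, Jam2 or Podxl, so these genes were not examined. In Cldn4 it lay at -14 to -9 from the start, in Cldn6 at -93 to -88 and in Snai1 at -126 to -121. Epcam held 2 copies, at -187 to -182 and -19 to -14, and F11r 1, at -122 to -117, whereas the windows of Cldn3 and Tjp1 held none. A match shows only that the letters are present, and its absence says nothing of these genes elsewhere.

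Tjp1 encodes ZO-1, the scaffold under tight junctions. In the first run it read 10.09, 9.78 and 9.67 in the ICM, 9.50, 9.39 and 9.82 in BO-9 and 9.21, 9.49 and 9.31 in ESCs. The ESC arrays lay below the ICM arrays without overlap (-0.51, SE 0.15, adjusted p = 0.01), but neither this nor another comparison of the first run reached 2-fold. In the hybrid run it read 6.94 and 5.25 in the ICM, the latter not above background, 7.81 and 8.40 in IO-1, 8.39 and 9.00 in IO-3 and 9.04 and 9.41 in P15. P15 was called 8.74-fold above the ICM (3.13, SE 0.45, adjusted p = 2.37e-05), and the difference was 4.00 without hybrid ICM replicate 1 and 2.29 without replicate 2. That difference depended on which ICM arrays were used: with the 2 BALB/c ICM arrays of the same run in place of the hybrid ones, where Tjp1 read 9.28 and 9.50, it was -0.21 (adjusted p = 0.681), and that between IO-0.5 and the ICM went from 1.55 (adjusted p = 0.0129) to -1.80 (adjusted p = 0.000633). The 2 sets of ICM arrays differed in strain and in brightness, which cannot be told apart.

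F11r encodes JAM-A, a junctional adhesion molecule of epithelial cells. In the first run it was called in no comparison, with 9.01, 8.67 and 8.71 in the ICM and 8.25, 8.70 and 8.81 in ESCs. In the hybrid run it read 8.62 and 8.90 in the ICM, 7.23 and 7.41 in IO-2, 7.64 and 7.80 in IO-5, 7.63 and 7.49 in P2, 8.62 and 8.43 in P4 and 8.66 and 8.88 in P15. P15 was 2.08-fold above IO-5 (1.06, SE 0.24, adjusted p = 0.00473) and 2.32-fold above P2 (1.22, SE 0.24, adjusted p = 0.00189), and differed from the ICM by 0.01 (95% interval -0.49 to 0.52). The call against P2 was lost on leaving out P2 replicate 1 (1.29, adjusted p = 0.015) or 2 (1.15, adjusted p = 0.0209) or P15 replicate 1 (1.31, adjusted p = 0.0121) or 2 (1.10, adjusted p = 0.0309), and the call against IO-5 without any 1 of the 4 arrays, with adjusted p of 0.024 and 0.0243 without IO-5 replicates 1 and 2 and 0.0212 and 0.0573 without P15 replicates 1 and 2.

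Jam2 encodes JAM-B, a junctional adhesion molecule. In the hybrid run it read 10.13 and 10.10 in the ICM, 9.26 and 9.08 in IO-1, 8.63 and 8.99 in IO-2, 8.70 and 8.92 in IO-3 and 9.53 and 9.71 in IO-5. It then read 9.73 and 10.09 in P2, 10.31 and 10.28 in P4 and 10.85 and 10.96 in P15, the highest level of any group. P15 exceeded IO-5 by 2.44-fold (1.29, SE 0.24, adjusted p = 0.00151), a call that was lost without IO-5 replicate 2 (1.38, adjusted p = 0.0106) or P15 replicate 1 (1.33, adjusted p = 0.0124) or 2 (1.22, adjusted p = 0.022).

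In the BALB/c run the brightest Jam2 probe fell from 9.42, 9.62 and 9.28 in the ICM to 7.76 and 7.38 in BO-3 (-1.87, SE 0.18, adjusted p = 2.56e-07). It rose to 9.17, 9.34 and 9.19 in BO-9 (1.66, SE 0.18, adjusted p = 9.74e-06) and to 10.54, 10.57 and 10.57 in ESCs, 2.51-fold above BO-9 (adjusted p = 6.19e-06) and 2.17-fold above the ICM (1.12, SE 0.16, adjusted p = 1.7e-05). The rise to BO-9 was lost with BO-3 replicate 1 included (0.98, adjusted p = 0.0942), where Jam2 read 9.53. The other probes of the gene did not share the order of ESCs and ICM: ILMN_2550414 was called lower in ESCs (-1.11, SE 0.20, adjusted p = 0.000217) and ILMN_1227559 read -0.62 (SE 0.24, adjusted p = 0.0449), while both fell from the ICM to BO-3 with the brightest probe (-2.24 and -1.70). The direction of Jam2 between ESCs and the ICM therefore depended on the probe.

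Of the tight junction and polarity genes, which count Cldn3, Cldn4, Cldn6, Tjp1, F11r and Jam2 among them, 1 of the 21 tested was higher and 7 were lower in BALB/c ESCs than in the ICM, where 13.9% of all genes were called higher and 11.7% lower. Those lower included Ocln, which encodes occludin (not above background in ESCs, at least 4.77-fold lower, measured means 4.52 and 7.01, adjusted p = 3.73e-08), Cldn7 (-2.26, SE 0.31) and Marveld3, a relative of occludin (-1.58, SE 0.21), while the higher one was Jam2. From BO-3 to BO-9, 1 was higher and 5 were lower, where 5.42% of all genes were called, with Ocln by -2.06 (SE 0.24) and Prkcz, which encodes the atypical protein kinase C zeta, by -1.42 (SE 0.25). The median differences were -0.23 and -0.59, beside 0.00 and 0.02 for all genes.

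Podxl encodes podocalyxin, a sialomucin of apical membranes that is also carried by pluripotent cells. It rose 6.99-fold from 6.78, 5.35 and 6.22 in the BALB/c ICM to 8.99 and 8.85 in BO-3 (2.81, SE 0.33, adjusted p = 2.28e-06). It stayed between 8.28 and 9.21 on the arrays of BO-5, BO-7 and BO-9, and ESCs (8.16, 8.61 and 8.50) lay 4.95-fold above the ICM (2.31, SE 0.29, adjusted p = 3.52e-06). In neither comparison did the arrays overlap.

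Podxl on hybrid arrays rose between IO-0.5 and IO-1. It was not above background on the ICM arrays (5.14 and 4.37) and read 5.50 and 5.43 in IO-0.5, 8.35 and 8.30 in IO-1, 8.36 and 8.53 in IO-2, 9.06 and 9.34 in IO-5 and 8.63 and 8.81 in P15. The difference between IO-1 and IO-0.5 was 7.24-fold (2.86, SE 0.29, adjusted p = 2.42e-05). P15 lay at least 3.51-fold above the ICM (measured means 8.72 and 4.75, adjusted p = 5.43e-08). No fold is given between IO-0.5 and the ICM, since the lowest signal above background on the ICM arrays (6.41 and 7.41) was higher than Podxl in IO-0.5. With the BALB/c ICM arrays of that run in place of the hybrid ones, IO-0.5 was called lower than the ICM (-1.02, adjusted p = 0.00882).

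Snai1, which encodes Snail, is given by its brighter probe, as the other, ILMN_1241355, was not above background on any fitted array of either run. Its highest hybrid group mean was in SBIO-3 and its lowest in P15. In the BALB/c run the ICM read 6.08, 6.10 and 6.27, BO-3 read 6.23 and 6.45, BO-5 read 5.58, 5.55 and 5.30, BO-7 read 6.41, 5.75 and 5.72 and BO-9 read 5.77, 6.69 and 6.12. The ESC arrays (5.29, 4.80 and 4.80) lay below all BO-9 and ICM arrays. They were 2.34-fold below BO-9 (-1.23, SE 0.22, adjusted p = 0.000369), or -0.96 without BO-9 replicate 2 (adjusted p = 0.00194), and 2.28-fold below the ICM (-1.19, SE 0.22, adjusted p = 0.000254). Neither difference was called with an offset of 50 (-0.72 and -0.68) or without background correction (-0.45 and -0.42).

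Hybrid Snai1 read 7.17 and 6.48 in the ICM, the latter not above background, and 5.26 and 5.77 in IO-0.5. It then read 7.00 and 6.85 in IO-1, 7.45 and 7.29 in IO-2, 6.88 and 7.18 in IO-3, 6.69 and 6.65 in IO-5, 5.77 and 5.90 in P2, 5.74 and 5.60 in P4 and 5.32 and 5.04 in P15. The level thus dipped at IO-0.5, rose by IO-1 and was low in each passage of ESCs. The fall to IO-0.5 was 2.47-fold (-1.31, SE 0.28, adjusted p = 0.00209), the rise to IO-1 2.64-fold (1.40, SE 0.28, adjusted p = 0.00638) and the fall from IO-5 to P15 2.8-fold (-1.49, SE 0.28, adjusted p = 0.00174). With an offset of 50, without background correction and under cyclic loess normalization, the fall to IO-0.5 (-0.89, -0.56 and -0.92) was not called. Nor was the rise to IO-1 (0.95, 0.60 and 0.92) in these settings. The fall to P15 was not called with the offset of 50 (-0.95) or without background correction (-0.58).

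Several of these calls rested on single arrays. The fall to IO-0.5 was lost without hybrid ICM replicate 1 (-0.98, adjusted p = 0.0216) or IO-0.5 replicate 1 (-1.06, adjusted p = 0.0264), and the rise to IO-1 without IO-0.5 replicate 1 (1.16, adjusted p = 0.0506) or IO-1 replicate 1 (1.34, adjusted p = 0.0498) or 2 (1.48, adjusted p = 0.0279). The fall from IO-5 to P15 was lost without IO-5 replicate 2 (adjusted p = 0.0164) or P15 replicate 1 (adjusted p = 0.0102) or 2 (-1.34, adjusted p = 0.0284). P15 lay 3.12-fold below the ICM (-1.64, SE 0.28, adjusted p = 0.000136), and that call was kept without any 1 of the 4 arrays. It was lost without background correction (-0.67).

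Of the other EMT transcription factors, Zeb1 was higher in BALB/c ESCs than in the ICM (1.78, SE 0.19) and in BO-9 than in BO-3 (1.77, SE 0.21), and Tcf4 was higher in ESCs than in the ICM (2.17, SE 0.48). With Snai1 the list counted 2 higher and 1 lower of 6 tested between ESCs and the ICM, where 25.7% of all genes were called. Between P15 and the ICM it counted 2 higher and 3 lower of 6, where 48.1% of all genes were called. On hybrid arrays Zeb1 and Tcf4 were not above background in the ICM and were at least 1.41-fold (measured means 7.40 and 4.37, adjusted p = 0.000116) and at least 2.25-fold (measured means 8.08 and 4.36, adjusted p = 8.19e-06) higher in P15. Snai3 was not above background in P15 and was at least 16-fold below the ICM (measured means 4.64 and 8.81, adjusted p = 3.73e-06), and Zeb2, also called lower, was above background in neither group. None of the 6 was called between SBIO-1 and IO-1, and Snai1 alone between SBIO-3 and IO-3, against 2.52% and 11.1% of all genes.

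**Figure D3:**
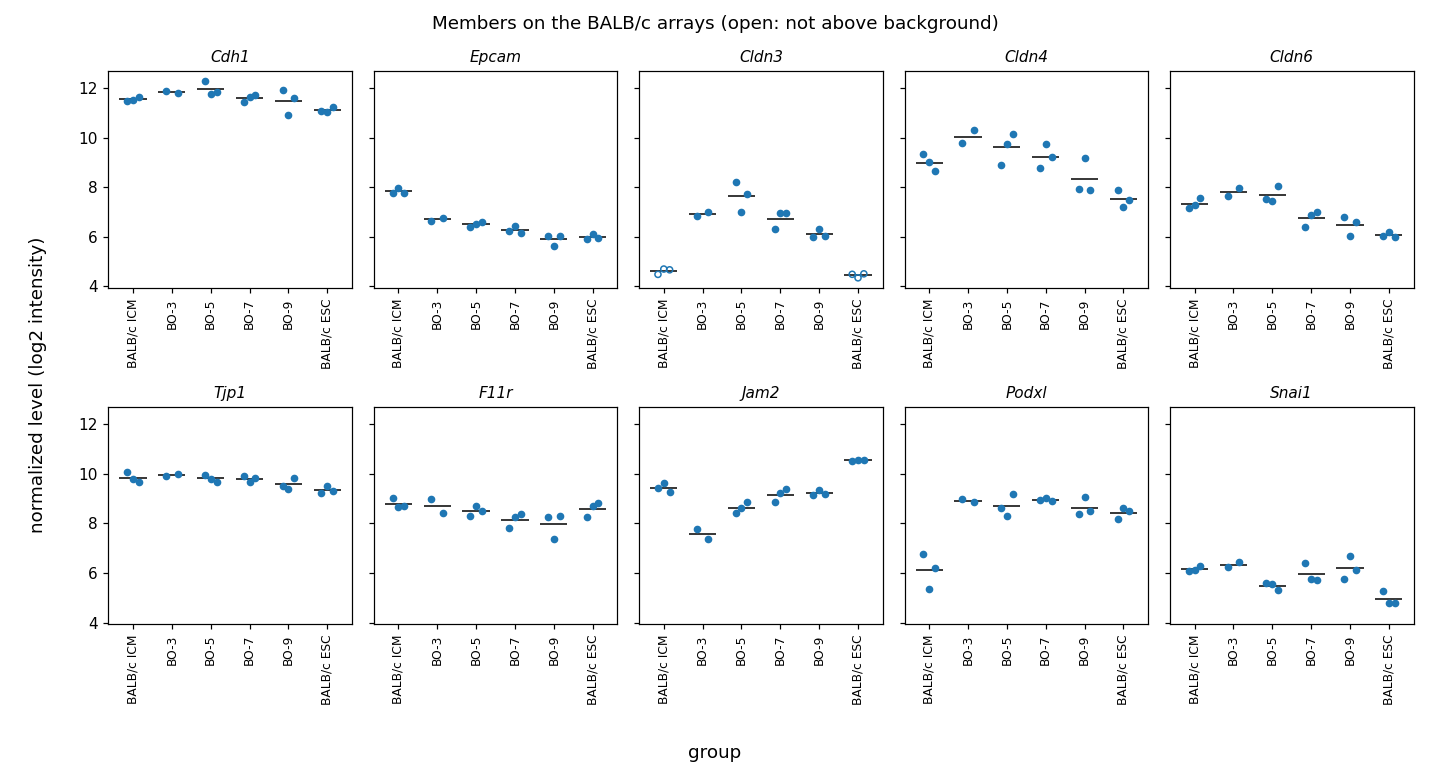
Level (log2 intensity) of the 10 members on the 17 BALB/c arrays fitted, by group, with 1 point per array, open points for arrays not above background and a line at each group mean. Cldn3 rose from not above background in the ICM and returned there in ESCs, Epcam decreased from the ICM onward, and Cdh1 and Tjp1 varied by less than 1 log2 unit between group means.

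**Figure D4:**
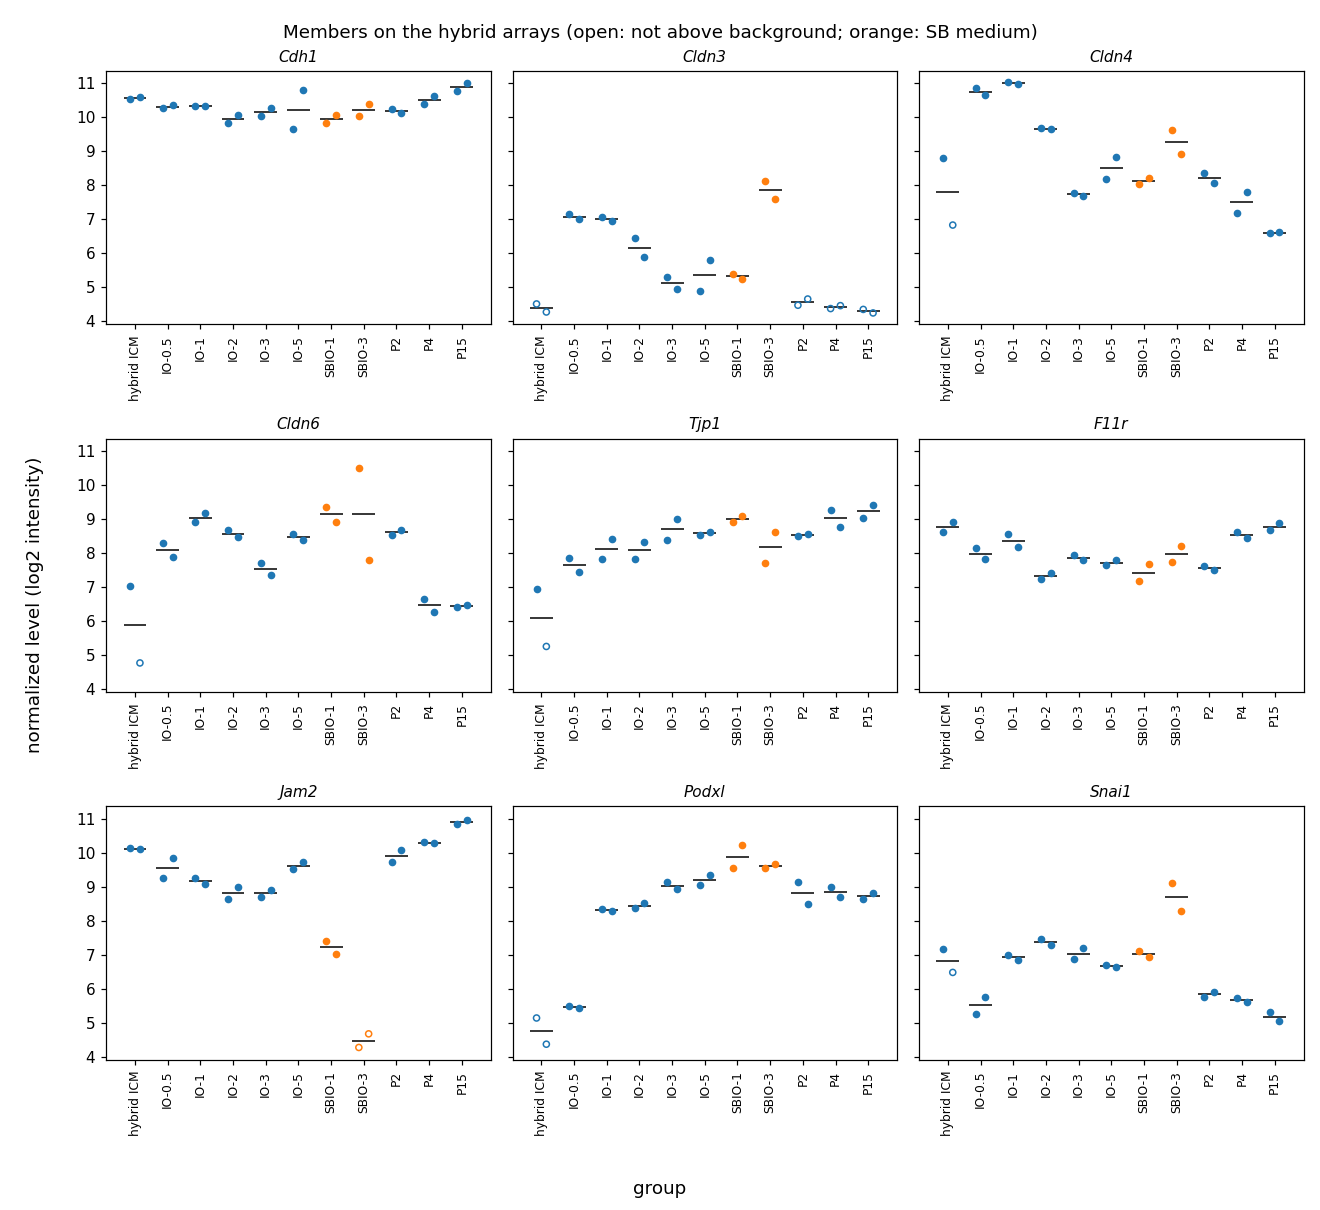
Level (log2 intensity) of the 9 members with a probe on the 22 hybrid arrays fitted, drawn in the same way, with SB cultures in orange. In SBIO-3, Cldn3 and Snai1 were at their highest group means (7.86 and 8.70) and Jam2 at its lowest (4.47, not above background).

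The comparison with SB medium asked what culture without PD0325901 did to these genes. At day 1 Cldn3 read 5.39 and 5.25 in SBIO-1 against 7.05 and 6.93 in IO-1, 3.2-fold lower (-1.68, SE 0.28, adjusted p = 0.00171). Cldn4 read 8.03 and 8.20 against 11.03 and 10.96, 7.37-fold lower (-2.88, SE 0.45, adjusted p = 0.000943). In both the groups did not overlap.

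At day 3 the order of Cldn3 was the opposite. It read 8.11 and 7.60 in SBIO-3 against 5.30 and 4.93 in IO-3, 6.68-fold higher (2.74, SE 0.28, adjusted p = 7.76e-06), and it was 5.81-fold above SBIO-1 (adjusted p = 1.78e-05). Cldn4 read 9.63 and 8.92 in SBIO-3 against 7.78 and 7.69, a difference of 1.54 (SE 0.45, adjusted p = 0.0225) that was not called, but was called under cyclic loess normalization (1.49, adjusted p = 0.000362). The change of the medium effect from day 1 to day 3 was called for both, at 4.42 (SE 0.40, adjusted p = 4.24e-06) for Cldn3 and 4.42 (SE 0.63, adjusted p = 0.000258) for Cldn4.

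The same 2 days differed in lineage markers. Between SBIO-1 and IO-1, where 2.52% of all genes were called, 9 of the 12 trophectoderm genes were lower and none higher, with Krt7 at -4.57 (SE 0.25), Gata2 at -3.89 (SE 0.22), Krt18 at -3.59 (SE 0.31) and Tfap2a at -3.13 (SE 0.22). Between SBIO-3 and IO-3, where 11.1% were called, 5 were higher and none lower, with Elf5 at 2.35 (SE 0.30) and Cdx2 at 1.94 (SE 0.25). The change of the medium effect was called for 11 of the 12, each upward, against 10.2% of all genes, with a list median of 3.53 beside -0.01 for all genes. Their part in the claudin values was not tested. The day 1 calls of both claudins were lost on leaving out IO-1 replicate 1 (Cldn3 adjusted p = 0.0262, Cldn4 0.0157) or SBIO-1 replicate 1 (0.0177 and 0.0171) or 2 (0.0274 and 0.0121), while the day 3 call of Cldn3 and both changes of the medium effect were kept without any 1 array.

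Jam2 was lower in SB medium on both days. It read 7.40 and 7.03 in SBIO-1 against 9.26 and 9.08 in IO-1, 3.87-fold lower (-1.95, SE 0.24, adjusted p = 0.000125). On both SBIO-3 arrays it was not above background (4.27 and 4.67), at least 12.7-fold below IO-3 (8.70 and 8.92, measured means 4.47 and 8.81, adjusted p = 1.61e-08) and at least 4.2-fold below SBIO-1 (adjusted p = 2.04e-06). The fitted change of the medium effect, -2.39 (SE 0.34, adjusted p = 0.00025), was computed with SBIO-3 levels not above background and is no measured size. It was not called under cyclic loess normalization (-0.89, adjusted p = 0.116) or without background correction (-0.84, adjusted p = 0.0148). The weaker probe ILMN_1227559 was also not above background in SBIO-3 (4.23 and 4.26) and read 4.97 and 5.09 in IO-3, a difference of -0.78 (SE 0.55, adjusted p = 0.344) that was not called.

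Podxl read 9.54 and 10.24 in SBIO-1 against 8.35 and 8.30 in IO-1, 2.96-fold higher (1.57, SE 0.29, adjusted p = 0.00379). At day 3, 9.55 and 9.68 in SBIO-3 against 9.13 and 8.92 in IO-3 gave 0.59 (SE 0.29, adjusted p = 0.163), which was not called. The change between the days was -0.98 (SE 0.41, adjusted p = 0.0985), so that the day 1 and day 3 effects were not shown to differ. The day 1 call was lost without IO-1 replicate 1 (1.60, adjusted p = 0.0355) or 2 (1.55, adjusted p = 0.0238) or SBIO-1 replicate 2 (1.22, adjusted p = 0.0815).

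Snai1 did not differ detectably between the media at day 1, at 7.10 and 6.93 in SBIO-1 and 7.00 and 6.85 in IO-1 (0.09, 95% interval -0.51 to 0.70, adjusted p = 0.909). At day 3 it read 9.12 and 8.28 in SBIO-3 against 6.88 and 7.18 in IO-3, 3.18-fold higher (1.67, SE 0.28, adjusted p = 0.000692), and 3.22-fold above SBIO-1 (1.69, SE 0.28, adjusted p = 0.000911). The lower SBIO-3 array was above every array of the other hybrid groups. Of 9 epiblast markers, 4 were lower in SBIO-3 than in IO-3 and none higher, with a summed level of 65.13 to 70.45 against 81.37 to 83.3, and 3 of 9 primitive endoderm markers were higher. Of all genes, 6.2% were called lower and 4.85% higher in this comparison. The part of these markers' cells in the Snai1 and Jam2 values was not tested. The day 3 call was lost without SBIO-3 replicate 1 (1.26, adjusted p = 0.0126) or IO-3 replicate 1 (1.51, adjusted p = 0.0123), and that against SBIO-1 without SBIO-3 replicate 1 (1.28, adjusted p = 0.0119) or SBIO-1 replicate 2 (1.60, adjusted p = 0.0146). The change of the medium effect was 1.58 (SE 0.40, adjusted p = 0.0119), short of the threshold of 0.01. It was called without SBIO-3 replicate 2 (2.00, adjusted p = 0.00237), with an offset of 50 (1.38, adjusted p = 0.0058), without background correction (1.04, adjusted p = 0.00493) and under cyclic loess normalization (1.02, adjusted p = 0.00626).

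Cdh1, whose transcription Snail represses, read 10.05 and 10.40 in SBIO-3 and 10.05 and 10.27 in IO-3 beside this difference in Snai1. Tjp1 and F11r were not called between the media on either day, and their differences at day 3 were -0.53 (95% interval -1.48 to 0.42) and 0.10 (95% interval -0.41 to 0.60). Cldn6 differed by 1.61 at day 3 (95% interval 0.17 to 3.06, adjusted p = 0.103), with the SBIO-3 arrays at 10.50 and 7.79. That difference was 2.97 without SBIO-3 replicate 2 and 0.26 without replicate 1, so its size depended on which array was kept.

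Of the 20 tight junction and polarity genes tested in the hybrid run, 3 were higher and 1 lower in SBIO-3 than in IO-3, where 11.1% of all genes were called, including Cldn7 (1.18, SE 0.28) and Patj, a polarity scaffold (1.78, SE 0.36). At day 1, where 2.52% of all genes were called, 1 was higher and 4 were lower, including Cldn7 (-1.70, SE 0.28). Of 17 apical and surface epithelial genes, 1 was higher and 3 were lower at day 1, against 2.52% of all genes called. At day 3, 1 was higher and 1 lower, against 11.1%. Prss8, a membrane-anchored serine protease, was lower at day 1 (-2.02, SE 0.31) and higher at day 3 (1.60, SE 0.31). Among 15 mesenchymal genes at day 3, Vim, which encodes vimentin, and Mmp2, a matrix metalloproteinase, were above background on neither SBIO-3 array, and Ccn2, a matricellular protein gene, was higher (1.17, SE 0.25). Vim was at least 4.18-fold below IO-3 (measured means 4.60 and 7.21, adjusted p = 6.34e-05) and Mmp2 at least 4.54-fold (measured means 4.53 and 7.33, adjusted p = 1.2e-06). The list medians at day 3 were 0.29 for tight junction genes, 0.02 for apical genes and 0.55 for mesenchymal genes, beside -0.01 for all genes.

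**Figure D5:**
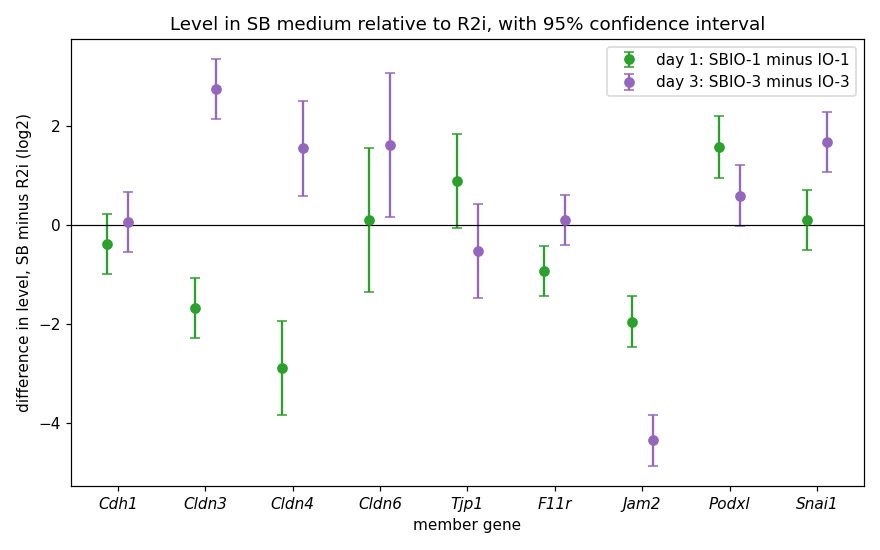
Difference in level between SB and R2i medium (log2) for the 9 members of the hybrid run at day 1 (SBIO-1 minus IO-1) and day 3 (SBIO-3 minus IO-3), with the fitted value and its 95% confidence interval. Cldn3 went from -1.68 to 2.74 and Cldn4 from -2.88 to 1.54, Jam2 lay at -1.95 on day 1 and is drawn on day 3 at its fitted value, which stands for at least 12.7-fold lower because both SBIO-3 arrays were not above background, and the intervals of Cdh1 included 0 on both days.

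Across the 11 hybrid group means, the members did not follow a single pattern. Cdh1 followed F11r most closely (r = 0.93), and Tjp1 followed Podxl (0.84), while Jam2 ran opposite to Snai1 (-0.85); these are descriptions over 11 points that share 1 run of arrays. Outside the set, the 3 genes most like Snai1 among 7912 compared were Plod3, a collagen-modifying lysyl hydroxylase (r = 0.947), Igf2, a growth factor (0.933), and Shisa5 (0.922). Plod3 read 12.49 in SBIO-3 and 9.01 in P15, and Igf2 read 11.72 and 5.94. For Cdh1 they were Zc3h8 (0.963), Cox18 (0.942) and Adss (0.941), and Zc3h8 read 6.16 in IO-2, where Cdh1 was lowest, and 8.15 in P15.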

How the data were processed

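RNA of 42 samples was hybridised to Mouse WG-6 (first run) or MouseRef-8 v2.0 (second run) Illumina bead arrays after amplification. The authors deposited raw bead intensity values with a detection p-value for each probe and array, and log2 values after their normalization; GenomeStudio and limma are named in the submitters' processing notes, without versions. The deposited log2 values followed the values recomputed here with a correlation of at least 0.9999649 and differed from them by a constant, and were used as an alternative.

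Intensities of each run were background-corrected on the detection p-values, given an offset of 16 and quantile-normalized on the log2 scale (neqc, limma 3.58.1, R 4.3.3). Probes with a detection p under 0.05 on at least 2 fitted arrays were kept, 16603 and 13095 of them, and each gene was represented by its kept probe of highest mean, which gave 11450 and 10013 genes. Genes were named from the platform annotation; 34885 and 23978 probes had 1 symbol, 18 and 0 had several and 10378 and 1719 had none. limma (lmFit and eBayes) was fitted over all groups of a run, with Benjamini-Hochberg adjustment over all genes. A fold against a group not above background is a lower bound, taken against the lowest signal above background on each array of that group. The first run had 17 fitted arrays and the second 22; BO-3 replicate 1 was left out as dim (the study used 2 BO-3 replicates, without saying which), and 2 further BALB/c ICM arrays, deposited with the hybrid arrays and not described in the study, served as an alternative. The number of arrays limits the precision. Member probes numbered 17 on the first design and 13 on the other; the text names all 10 members, from 8 gene lists at most 4 called genes in each direction by size, and the 3 genes most like Snai1 and Cdh1. Members and lists were chosen with earlier results of these data known. The scripts were tested on simulated data, and figures drawn with matplotlib 3.10.9. Alternatives were the offset, background correction, normalization, detection filter, arrays fitted, a replicate block and leaving out each array. Upstream sequence came from RefSeq (GRCm38.p6).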

Additional observations from a re-analysis of the deposited data

Results flagged for a closer look

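The effect of SB medium differed between day 1 and day 3 for 3 members, by the test of the difference itself. It moved upward by 4.42 for Cldn3 (adjusted p = 4.24e-06, limma) and by 4.42 for Cldn4 (adjusted p = 0.000258), and for Jam2 the fitted change was -2.39 (adjusted p = 0.00025). Jam2 was not above background on either SBIO-3 array, so that value is no measured size, and it was not called under cyclic loess normalization (-0.89, adjusted p = 0.116) or without background correction (-0.84, adjusted p = 0.0148). No cause was tested.

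The 2 BALB/c ICM arrays deposited with the hybrid arrays, which the study's methods do not describe and which enter no comparison of the main fit, carried 6 members above background on both arrays and above both hybrid ICM arrays, with mean levels of 11.02 for Cdh1, 9.02 for Cldn4, 7.63 for Cldn6, 9.39 for Tjp1, 10.36 for Jam2 and 6.42 for Podxl. For Tjp1 the arrays read 9.28 and 9.50, against 6.90 and 5.22 on the hybrid ICM arrays in the same normalization. The 2 sets differed in strain and in brightness, with 37.1% to 37.9% of probes above background against 18% to 24.2%, and these cannot be told apart.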

How the results depend on the processing

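Of 45 called member differences, 11 were called under every alternative run and 34 were lost under at least 1; only pairs of member and comparison called in at least 1 setting were followed singly. With an offset of 50 the members called numbered 3 for BO-3 against ICM, 1 for ESC against BO-9, 1 for IO-1 against IO-0.5 and 2 for P15 against IO-5. All genes called there numbered 1553, 1001, 283 and 970. Without background correction the members called numbered 2, 1, 1 and 1 in these comparisons, 1 for IO-5 against IO-1 and 0 for P15 against P2. All genes called there numbered 1106, 660, 153, 656, 304 and 789. With cyclic loess the members called were 1 for IO-1 against IO-0.5, 5 for P15 against P2 and 6 for P15 against ICM, and with the deposited values 2 for P15 against P2. All genes called numbered 264, 2453 and 3224 with cyclic loess and 1296 with the deposited values. For P15 against P2 they numbered 1283 in the main fit. Fitting only the arrays compared left 0 members for IO-0.5 against ICM, IO-1 against IO-0.5, IO-5 against IO-1 and SBIO-3 against SBIO-1, 1 for P15 against IO-5, P15 against ICM, SBIO-1 against IO-1 and SBIO-3 against IO-3, and 3 for P15 against P2, with few residual degrees of freedom. Of all 10013 genes, 0, 0, 11 and 0 were called where 0 members were left. Where 1 was left, 416, 2438, 59 and 16 genes were called, and 2426 for P15 against P2. With BO-3 replicate 1 there were 3 members for BO-3 against ICM, beside 1710 genes. With the BALB/c ICM arrays, beside 1536 genes, there were 5 members for IO-0.5 against ICM. Leaving out 1 array gave 2 to 5 for IO-0.5 against ICM, 1 to 2 for IO-1 against IO-0.5, 0 to 2 for IO-5 against IO-1, 0 to 4 for P15 against IO-5, 0 to 0 for P15 against P2 and 1 to 3 for SBIO-1 against IO-1; a group left with 1 array was assumed to vary like the others. The cause was not tested. Reversed values were Podxl in IO-0.5 against ICM (-1.27 with cyclic loess, -1.02 with BALB/c ICM arrays), Tjp1 with BALB/c ICM arrays (-1.80 in IO-0.5 and -0.21 in P15), Cldn3 in P15 against ICM on leaving out 1 array (-0.22 to 0.02), and Jam2 on other probes: -0.08 for BO-9 against BO-3; -0.09, -0.12 and -0.03 for ESC against BO-9; and -0.62, -1.11, -0.12 and -0.12 for ESC against ICM. Same-numbered arrays deviated together with r from -0.32 to 0.39 and from -0.48 to 0.47. With so few arrays in a group these ranges cannot decide whether numbers paired samples, and the main fit assumed no pairing. With the replicate number as a block, 1 of the 45 calls was lost, Cldn4 in BO-3 against ICM (0.96, adjusted p = 0.0729). Dim hybrid ICM and SBIO-3 arrays limit what could be seen of low genes there.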

Other observations

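On BO-3 replicate 1, the dim array left out of the fit, the members read 12.77 for Cdh1, 8.57 for Epcam, 6.63 for Cldn3, 8.53 for Cldn4, 7.78 for Cldn6, 9.58 for Tjp1, 7.94 for F11r, 9.53 for Jam2, 8.04 for Podxl and 5.24 for Snai1. Cdh1, Epcam and Jam2 there lay above both other BO-3 arrays, Cldn6 lay between them, and the other members lay below both.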
